A study of Danio rerio with 4 samples.

Results

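Small nucleolar RNAs (snoRNAs) were examined in total RNA from zebrafish, taken as whole embryos with 6 somites. All genes with the Ensembl biotype snoRNA in the deposited table were taken, which gave 166 of 24235 genes. They were grouped by symbol into 68 H/ACA genes (symbols SNORA or ACA), 83 C/D genes (SNORD, U3 or U8) and 15 others whose symbols begin with sno. The groups compared were wild-type embryos of the AB strain (WT, 2 libraries) and embryos that carry bns297, an allele of npas4l, on both chromosomes (Npas4l-KO, 2 libraries), all raised at 28 °C without further treatment given in the labels. npas4l encodes a bHLH-PAS transcription factor needed for most endothelial and blood cells, and the series asked which RNAs depend on it. How many embryos or clutches stood behind a library is not given. The p-values rest only on the spread between these libraries, mainly as a trend across genes, and that spread may be technical. In RNA of whole embryos, fewer cells of a type and less RNA per cell cannot be told apart.

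snoRNAs guide the chemical modification of other RNAs, mainly ribosomal RNA, in the nucleolus. A C/D snoRNA binds fibrillarin with Nop56, Nop58 and Snu13 and directs methylation of a ribose. An H/ACA snoRNA binds dyskerin with Nop10, Nhp2 and Gar1 and directs the change of a uridine to pseudouridine. A few, among them U3, U8, U14 and U17, act in the cleavage of the ribosomal RNA precursor instead of, or besides, marking single bases. In vertebrates most snoRNAs are cut from introns of host genes, many of which encode ribosomal proteins or factors of ribosome assembly and translation. A snoRNA and its host mRNA are thus made as 1 transcript, but are stable to different degrees.

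The labels and the libraries were checked first. About 7208000 to 9021000 reads fell in genes per library, and the normalised values (counts that the submitters divided by a factor for each library and rounded) summed to between 7272902 and 8237748. The second Npas4l-KO library stood apart: 299 genes had a value of 0 in it and 2444 to 3000 in each other library, while 19481 genes reached 10, compared with 15954 to 16069. Its genes of high value were lower, with a median difference to WT 1 of -0.16 on the log2 scale among genes whose mean value was 200 or more. npas4l itself was not analysed here, but tal1, a blood and vessel regulator that acts downstream of it, fell in both mutants, from 166 and 163 in WT to 13 and 8 (log2 fold change -3.88, limma adjusted p = 3.27e-11). The embryo markers tbx16 and myod1 of mesoderm, sox3 and pax2a of neural tissue and krt4 of the surface had values of at least 225 in every library, while sox17 of endoderm was low, at 7 to 24.

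No snoRNA gene passed the test in either direction. Of the 166 genes, 121 averaged at least 10 over the libraries and were tested with limma-trend together with all other such genes. After Benjamini-Hochberg adjustment over all genes, 0 were higher and 0 lower at adjusted p under 0.05, beside a background of 0.006% of all 16653 tested genes higher and 0.042% lower. The smallest adjusted p of a snoRNA gene was 0.559, for SNORD21, and all others were at 1. With 1 mutant library left out together with all genes of tied values, some snoRNA genes passed as lower. Such a fit rests on 1 mutant library and is not set against the background given here. At an unadjusted p under 0.05, limma put 15 snoRNA genes lower and 0 higher, that is 12.4% of those tested, where 1.91% of all genes were lower and 1.84% higher. That count cannot be compared with a library left out, because the spread then comes from 1 group only. The 15 belong to the fit used here, and the count moved under some alternative settings. Upper-quartile scaling put the median log2 fold change at -0.10 over H/ACA, -0.20 over C/D and 0.16 over all genes. Without WT 1 the median log2 fold change was -0.13 over H/ACA and -0.27 over C/D genes. Without WT 2 it was -0.34 and -0.54.

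Most snoRNA genes nevertheless had a lower mean in Npas4l-KO. The log2 fold change was below 0 for 101 of 121 tested genes, against 52.7% of all genes. In 50 of them, or 41.3%, both mutant libraries were below both WT libraries, against 16.1% of all genes. In 2, both mutant libraries were above, against 13.3% of all genes. The median log2 fold change was -0.33 over the tested snoRNA genes (quartiles -0.46 and -0.15) and -0.02 over all genes. These members passed the filter on the mean of all libraries and do not stand for the 45 that did not, whose values never exceeded 20. Among those 45 the mutant mean was below the WT mean in 21 and above it in 20. Both mutant libraries were below both WT libraries in 5 of them and above in 7. The share of all genes averaging under 10 was not counted. Of all genes averaging 10 to 50, only 36.0% had a log2 fold change below 0. Those genes are of a higher level than the 45, so the even split is not read in either direction.

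Both large classes had a median below 0, and the difference between the classes was not tested. The median log2 fold change was -0.27 over 53 tested H/ACA genes, 44 of them below 0, and -0.37 over 59 tested C/D genes, 50 of them below 0. It was -0.34 over the 9 tested genes of the other class, 7 of them below 0. Both mutant libraries were below both WT libraries in 20 H/ACA (37.7%), 28 C/D (47.5%) and 2 other genes (22.2%), beside 16.1% of all genes. With 9 tested genes, the other class is thus near the share of all genes. Upper-quartile scaling, which moved the median of all genes to 0.16, put the medians at -0.10 for H/ACA and -0.20 for C/D, which is -0.26 and -0.36 relative to all genes. Leaving out WT 1 brought the H/ACA median to -0.13.

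**Figure D1:**
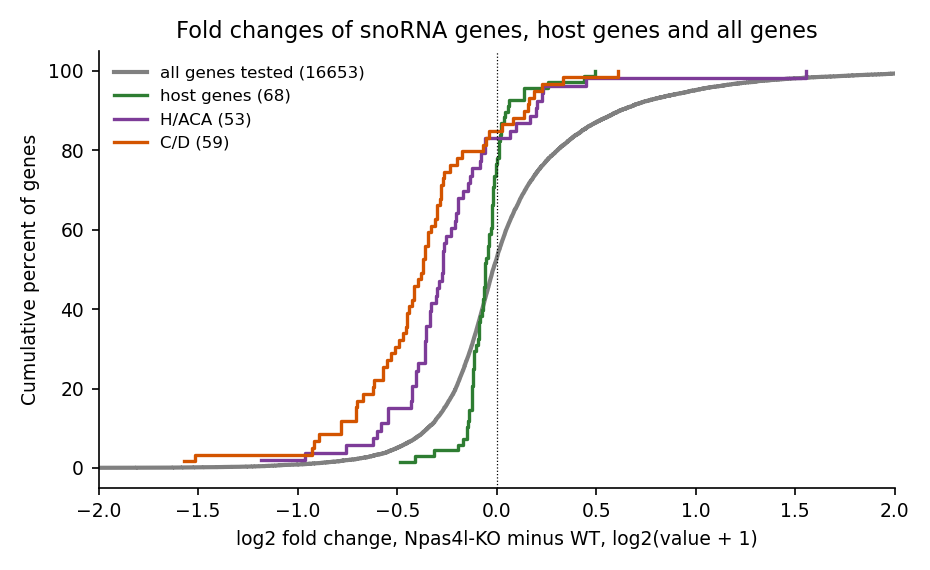
Cumulative percent of genes (vertical axis) by log2 fold change of Npas4l-KO against WT on the log2(value + 1) scale (horizontal axis, shown from -2 to 2) for all tested genes, the host genes, and the tested H/ACA and C/D genes. The curves of both snoRNA classes lie to the left of all genes, with medians of -0.27 and -0.37 against -0.02, while that of the hosts, with a median of -0.06, stays near 0.

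The libraries were also compared a pair at a time, since WT libraries could differ from each other as well. Over the tested snoRNA genes the median log2 difference was -0.41 between Npas4l-KO 1 and WT 1 and -0.40 between Npas4l-KO 2 and WT 1. Against WT 2 the same medians were -0.18 and -0.22. Both mutant libraries were thus below each WT library, but WT 2 was itself -0.21 from WT 1, a step as large as that from WT 2 to the mutants. Npas4l-KO 2 differed from Npas4l-KO 1 by 0.04. Npas4l-KO 2 also differed from WT over all genes, in a way that changed with level. Its median to both WT libraries was -0.12 for all genes averaging at least 50 and 0.42 for those averaging 10 to 50. For snoRNA genes of the same levels its medians to WT 1 and WT 2 were -0.36 and -0.25, and -0.44 and -0.19. WT 1 gave the highest value of the 4 libraries for 78 of 121 snoRNA genes and WT 2 for 25. Npas4l-KO 1 and 2 gave the highest value for 12 and 10. Of all 16653 tested genes, WT 1 and WT 2 were highest in 4364 and 3858, and Npas4l-KO 1 and 2 in 4303 and 4611. For C/D genes the differences to WT 1 were -0.52 and -0.54 and those to WT 2 were -0.22 and -0.25. For H/ACA genes they were -0.29 and -0.32 to WT 1 and -0.09 and -0.20 to WT 2.

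Summed over all 166 genes, snoRNAs took 0.221% and 0.196% of the values of WT 1 and WT 2 and 0.167% and 0.187% of Npas4l-KO 1 and 2. The groups did not overlap, and the mean share was 15.3% lower in the mutants (0.209% ± 0.018 against 0.177% ± 0.014, SD, n = 2 libraries each; two-sided exact permutation p = 0.333). That p is the smallest that 2 against 2 libraries can give. The log2 ratio of the mean shares was -0.24, and -0.15 without WT 1. H/ACA genes took 0.106% and 0.0924% in WT and 0.0824% and 0.0886% in Npas4l-KO. C/D genes took 0.102% and 0.0903% in WT and 0.0719% and 0.0862% in Npas4l-KO. In both classes Npas4l-KO 1 was lowest and WT 1 highest, and WT 2 lay close to Npas4l-KO 2. The ratio of the C/D sum to the H/ACA sum overlapped between the groups (difference of -0.07 on the log2 scale, exact permutation p = 0.667).

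**Figure D2:**
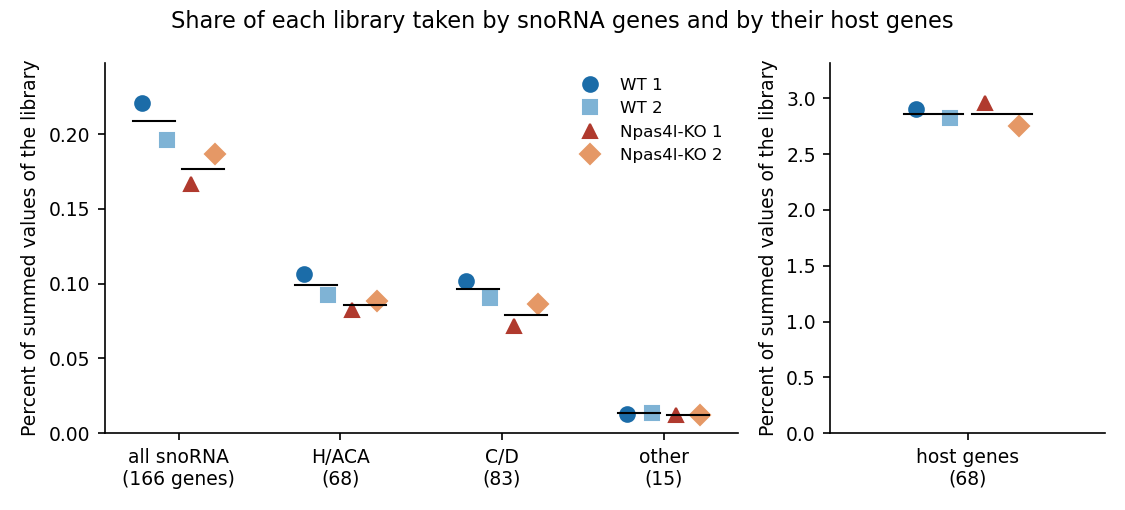
Percent of the summed values of each library (vertical axes, each starting at 0) taken by all snoRNA genes and by each class (left) and by the 68 host genes (right), 1 point per library, with black bars at the means of 2 libraries. The snoRNA shares of both mutants lie below those of both WT libraries, from 0.167% to 0.187% against 0.196% to 0.221%, while the host shares overlap.

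Some other classes of non-coding RNA were also lower in both mutants. Nuclear ribosomal RNA genes took 1.48% and 1.24% of the WT libraries and 1.11% and 1.19% of the Npas4l-KO libraries. The RNA components of RNase P and RNase MRP, listed as ribozymes (4 genes), took 0.174% in both WT libraries and 0.142% and 0.149% in Npas4l-KO. Spliceosomal snRNA genes took 0.0391% and 0.0348% in WT and 0.0228% and 0.0328% in Npas4l-KO. In each of these classes both mutants were below both WT libraries, again with an exact permutation p of 0.333. Genes of biotype misc_RNA did the same, at 1.42% and 1.38% in WT and 1.32% and 1.23% in Npas4l-KO. The 10 scaRNA genes, guide RNAs of Cajal bodies related to snoRNAs, took 0.00668% and 0.00809% in WT and 0.00682% and 0.00659% in Npas4l-KO and overlapped (exact permutation p = 0.667). The log2 ratio of the snoRNA sum to the ribosomal RNA sum was -2.74 and -2.66 in WT and -2.74 and -2.68 in Npas4l-KO, so these ratios overlapped (exact permutation p = 1). The ratio to the ribozyme sum overlapped too, with a difference of 0.02 on the log2 scale (exact permutation p = 1), as did that to the misc_RNA sum (-0.10, exact permutation p = 0.667). The log2 ratio to the snRNA sum was 2.50 in both WT libraries and 2.87 and 2.51 in Npas4l-KO, higher in both mutants (difference of 0.19, exact permutation p = 0.333), with Npas4l-KO 2 close to WT. The part of RNA recovery or of ribosomal RNA content in the snoRNA difference was not tested.

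A few genes carried most of the snoRNA signal. The 5 highest took 39.6% of all snoRNA value and the 10 highest 53.1%, while the median gene had a mean value of 26.75. Per 100 bases of gene, the median mean value was 29.2 for C/D genes, 24.7 for H/ACA genes and 15.1 for the others. C/D genes were shorter, with a median length of 77 bases against 134.5 for H/ACA. The C/D median is close to the length of a read, and how values scale with length there was not tested. The medians per 100 bases are thus not read as a difference in level between classes. 15 genes had a mean of 200 or more. In 12 of them both mutant libraries were below both WT libraries, beside 24.0% of all genes at that level, and in all 15 the log2 fold change was below 0, beside 71.7% of all genes at that level.

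**Figure D3:**
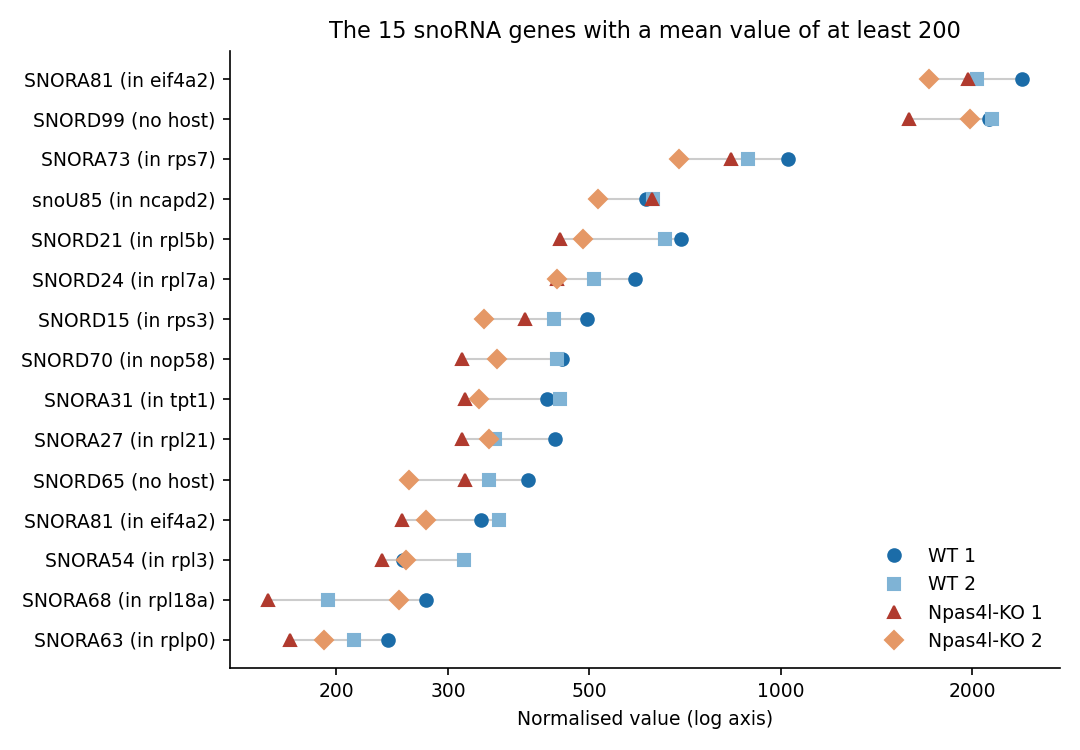
Normalised value in each library (horizontal log axis) of the 15 snoRNA genes averaging 200 or more, with their host genes, 1 point per library. In 12 rows both Npas4l-KO points lie to the left of both WT points, and the points overlap for snoU85, SNORA54 and SNORA68.

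Among H/ACA genes, SNORA81 (ENSDARG00000083699, chr2:7925389-7925578 on the plus strand in GRCz10) was the most abundant. This guide RNA lies within eif4a2, which encodes an RNA helicase of translation initiation, and was at 2395 and 2035 in WT and 1968 and 1713 in Npas4l-KO. Both mutants were below both WT libraries, but WT 2 and Npas4l-KO 1 were close (log2 fold change -0.27 ± 0.14 SE, but -0.15 without WT 1 and -0.17 without Npas4l-KO 2). A second SNORA81 copy in eif4a2 was at 338 and 360 in WT and 254 and 277 in Npas4l-KO, without overlap (-0.39 ± 0.17). SNORA31, within tpt1, was at 429 and 450 in WT and 319 and 335 in Npas4l-KO, with each group tight and apart from the other (-0.43 ± 0.16). SNORA27, within the ribosomal protein gene rpl21, was at 441 and 355 in WT and 315 and 348 in Npas4l-KO, where WT 2 and Npas4l-KO 2 nearly met (-0.26 ± 0.17, but -0.10 without WT 1 and -0.41 without WT 2). Of these, the lower SNORA81 copy and SNORA31 were among the 15 genes at an unadjusted p under 0.05, and none passed after adjustment.

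Among C/D genes, SNORD99 (ENSDARG00000081580, chr19:16123057-16123128 on the minus strand) was the highest, and the highest of all snoRNAs per length. The gene is shorter than a read, so its rank per length is not read as a rank in level. SNORD99 lies in no listed gene on its strand. It was at 2123 and 2152 in WT and 1591 and 1985 in Npas4l-KO, with Npas4l-KO 1 well below the other 3 (log2 fold change -0.27 ± 0.14 SE, but -0.11 without Npas4l-KO 1 and -0.43 without Npas4l-KO 2). SNORD21 (ENSDARG00000082960, chr6:29106288-29106384 on the plus strand), within the ribosomal protein gene rpl5b, had the smallest p of all snoRNAs. It was at 696 and 657 in WT and 449 and 488 in Npas4l-KO, so that the gap between the groups was wider than that within either (-0.53 ± 0.15, limma adjusted p = 0.559). rpl5b itself was at 4555 and 4183 in WT and 4524 and 3728 in Npas4l-KO, with overlap (-0.09 ± 0.14).

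SNORD70 lies within nop58, the gene of a core protein of C/D particles. It was at 452 and 444 in WT and 315 and 358 in Npas4l-KO, without overlap (log2 fold change -0.41 ± 0.16 SE). nop58 itself overlapped, at 4119 and 4189 in WT and 4712 and 3535 in Npas4l-KO. SNORD24, within rpl7a, was at 590 and 509 in WT and at 445 in both Npas4l-KO libraries (-0.30 ± 0.15, but -0.19 without WT 1). All 4 copies of SNORD15 within rps3 had both mutants below both WT libraries, where 16.1% of all genes did. These copies share a host and may share reads, so they are not separate observations. The set was chosen after its values were seen. The most abundant copy was at 495 and 440 in WT and 396 and 341 in Npas4l-KO, and the copy with the largest difference was at 101 and 94 against 52 and 61 (-0.78 ± 0.29). SNORD79, within the processed transcript CU467861.1, was at 70 in both WT libraries and 43 and 31 in Npas4l-KO (-0.92 ± 0.36). SNORD21, SNORD70, SNORD79 and these SNORD15 copies were among the 15 genes at an unadjusted p under 0.05. The host of SNORD79 was also below WT in both mutants, at 706 and 648 against 545 and 475 (-0.41 ± 0.15), and did not pass.

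The largest fold change of a tested snoRNA gene rested on 1 library. SNORD101, within rps12, was at 66 and 35 in WT and 6 and 38 in Npas4l-KO. The groups overlapped, and the log2 fold change of -1.57 ± 0.56 became -0.33 without Npas4l-KO 1 and -2.81 without Npas4l-KO 2. Similar spread between the mutants was seen at low levels for SNORD35 (8 and 12 in WT, 3 and 18 in Npas4l-KO), SNORD37 (23 and 6, then 4 and 17) and 1 copy of SNORA68 (16 and 31, then 29 and 9). These genes of few reads give no direction.

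The other class held snoU85, a Cajal body RNA with both C/D and H/ACA parts that guides modification of a spliceosomal RNA. Its higher copy, within the condensin gene ncapd2, was at 613 and 629 in WT and 627 and 516 in Npas4l-KO and overlapped (log2 fold change -0.13 ± 0.15 SE, and 0.047 under upper-quartile scaling). A second copy was at 121 and 110 in WT and 118 and 63 in Npas4l-KO, where only Npas4l-KO 2 stood apart. The third was at 73 and 81 in WT and 96 and 72 in Npas4l-KO and overlapped (log2 fold change 0.11 ± 0.28 SE). snoMBII-202, within rpl13, was at 72 and 110 in WT and 62 and 79 in Npas4l-KO, with overlap.

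Few tested genes pointed the other way. SNORA1, within CR936321.1, was at 26 and 24 in WT and 37 and 32 in Npas4l-KO, and 1 of the 4 SNORD83 copies within dkc1 was at 16 and 9 against 17 and 21. CR936321.1 itself, a processed transcript, was lower in both mutants, at 298 and 283 in WT and 243 and 176 in Npas4l-KO (log2 fold change -0.49 ± 0.18 SE), and did not pass after adjustment. SNORA1 and this SNORD83 copy were the 2 tested genes with both mutants above both WT libraries, at differences smaller than their standard errors (log2 fold changes 0.45 ± 0.50 and 0.61 ± 0.80). SNORA24 (1 and 13 in WT, 10 and 21 in Npas4l-KO), SNORA53 (57 and 42, then 54 and 61), SNORA23 (39 and 36, then 61 and 32) and 1 copy of snoU6-53 (16 and 4, then 11 and 16) had log2 fold changes above 0 but overlapped. Another snoU6-53 copy, too low to be tested, was at 1 in both WT libraries and 10 and 7 in Npas4l-KO. Summed over its copies, snoU6-53 was at 17 and 9 in WT and 27 and 23 in Npas4l-KO, without overlap.

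snoRNAs of ribosomal RNA processing were read separately. U3, which base-pairs with the precursor and is needed for the early cleavages that free the small subunit RNA, is given by 4 genes. The highest (ENSDARG00000099132, chr1:16234787-16235002 on the minus strand) was at 111 and 101 in WT and 60 and 73 in Npas4l-KO, without overlap (log2 fold change -0.67 ± 0.27 SE). The others were at 37 and 24, 29 and 14, and 9 and 1 in WT and at 25 and 16, 12 and 17, and 8 and 4 in Npas4l-KO, each with overlap. Summed, U3 was at 186 and 140 in WT and 105 and 110 in Npas4l-KO, so WT 1 and WT 2 differed by more than WT 2 did from either mutant.

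U8, needed for maturation of the large subunit RNAs in vertebrates, is given by 1 gene (ENSDARG00000082850, chr10:22877820-22877952 on the plus strand). It was at 49 and 42 in WT and 17 and 32 in Npas4l-KO, without overlap (log2 fold change -0.93 ± 0.47 SE, but -0.49 without Npas4l-KO 1). SNORD14, or U14, which acts in small subunit RNA processing, was at 69 and 67 in WT and 59 and 35 in Npas4l-KO for its main copy within the chaperone gene hspa8 (-0.57 ± 0.34, but -0.94 without Npas4l-KO 1 and -0.20 without Npas4l-KO 2). Its other copies were at 8 and 13, and 0 and 4, in WT and 10 and 1, and 6 and 4, in Npas4l-KO.

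SNORA73, the U17 RNA, is given by 4 genes, all within rps7. The main copy (ENSDARG00000083400, chr20:30469784-30470004 on the minus strand) was at 1027 and 888 in WT and 836 and 691 in Npas4l-KO, without overlap (log2 fold change -0.33 ± 0.14 SE, but -0.19 without Npas4l-KO 2). The other 3 overlapped, at 174 and 122, 111 and 91, and 64 and 73 in WT and at 156 and 125, 111 and 104, and 83 and 62 in Npas4l-KO, with log2 fold changes of -0.06, 0.10 and 0.07. The first of these became 0.11 under upper-quartile scaling. Whether the copies differ from each other in response was not tested.

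Copies of 1 snoRNA were very unequal in level in some families and near equal in others. 120 genes fell under 42 symbols with at least 2 copies, and 46 symbols had 1. Near-identical copies share reads, and how the counting treated reads with several matches is not stated by any source at hand, so the split between copies is uncertain. The main copy took 96.0% of SNORD65, 94.6% of SNORD66, 86.8% of SNORA81 and 73.0% of SNORA73 value. Per 100 bases, the higher SNORD65 copy was 23.7-fold above the lower. By contrast the 4 SNORD83 copies within dkc1 differed by at most 2.06-fold per length. Copies of SNORA23, SNORA21 and SNORD61 differed by at most 1.05-, 1.26- and 1.31-fold. Summed by symbol, both mutants were below both WT libraries in 18 of 42 families and above them in 1, snoU6-53, and 23 overlapped. Of all tested genes, taken singly, 16.1% were below and 13.3% above in this way. The family sums also hold copies too low to be tested, so the shares are not fully alike.

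**Figure D4:**
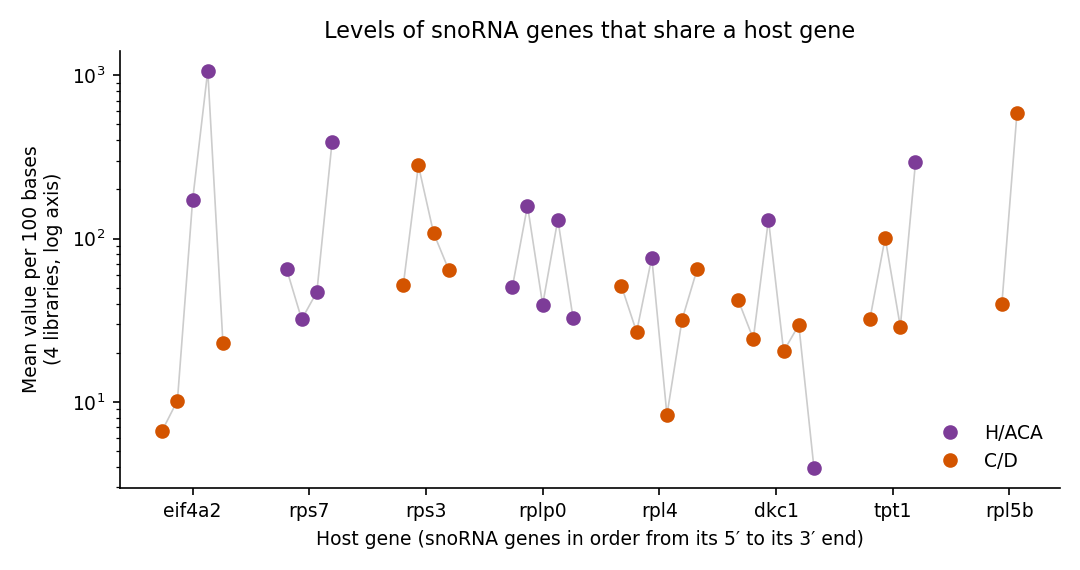
Mean value per 100 bases over the 4 libraries (vertical log axis) of snoRNA genes within 8 host genes, in order from the 5′ to the 3′ end of the host, coloured by class. Within eif4a2 the points span from 6.69 for a SNORD2 gene to 1067 for a SNORA81 gene. These genes differ in class and length, and the effect of length on the value was not tested.

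Host genes were found by position, as genes on the same strand whose span holds the whole snoRNA gene. 150 snoRNA genes lay within 68 hosts, of which 58 were protein-coding. 22 hosts encoded ribosomal proteins and held 51 snoRNA genes. Whether a snoRNA lies in an intron was not analysed here, and reads of unspliced host RNA that cross a snoRNA cannot be told apart from the snoRNA itself. Values per 100 bases within a host spanned a wide range: in eif4a2 the 3 SNORD2 genes had 6.69 to 22.9 and the SNORA81 genes 172 and 1067. The SNORD2 genes are shorter than a sequencing read, and how values scale with length in such genes was not tested. The step from SNORD2 to SNORA81 is therefore not read as a difference in level. The SNORA81 genes are near each other in length, at 179 and 190 bases. Only 6 snoRNAs, the main SNORA81 among them, had a higher mean value than their host.

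With the libraries of each group averaged, host genes as a group stayed closer to 0 than their snoRNAs. 0 of 68 hosts passed the test, with 2 at an unadjusted p under 0.05, both lower, and none higher. Those 2 are 2.94% of the hosts, near the 1.91% of all genes that were lower at that threshold. The median log2 fold change of the hosts was -0.06, and 62 lay between -0.2 and 0.2. It was below 0 in 52 of 68 hosts, or 76.5%, beside 71.7% of all genes averaging at least 200. By library, their median difference to WT 1 and WT 2 was 0.08 and 0.09 in Npas4l-KO 1, but -0.21 and -0.20 in Npas4l-KO 2. The tested snoRNAs within hosts had medians of -0.39 and -0.18 in Npas4l-KO 1 and -0.36 and -0.20 in Npas4l-KO 2. Between Npas4l-KO 2 and WT 2, hosts and snoRNAs were thus alike. Together the hosts took 2.90% and 2.82% of the WT libraries and 2.96% and 2.75% of the Npas4l-KO libraries, with overlap (exact permutation p = 1). Npas4l-KO 1 had the highest value in 42 hosts and Npas4l-KO 2 the lowest in 61. All 5244 genes averaging at least 200 leaned the same way but in smaller shares, with these libraries highest in 1957 and lowest in 3429. Without Npas4l-KO 1, and with genes of tied values left out, some hosts passed the test. That fit rests on 1 mutant library and is not set against the background given here.

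Ribosomal protein hosts had a median log2 fold change of -0.04, and the 45 tested snoRNAs within them -0.33. The shares below 0 were alike, at 81.8% of these hosts and 84.4% of these snoRNAs. For 109 tested snoRNAs the ratio to the host was formed in each library. Its median difference between the groups was -0.29 on the log2 scale, lower in the mutants for 86 and higher for 23. This ratio depended on the mutant library: its median was -0.48 and -0.31 from Npas4l-KO 1 to WT 1 and WT 2, but -0.15 and -0.03 from Npas4l-KO 2, where hosts were also lower. WT 2 was -0.14 from WT 1 in the same ratio. Of the 16 snoRNA genes outside any host, 12 were tested, all with a log2 fold change below 0, beside 52.7% of all genes. Their median was -0.43. By library, the medians of Npas4l-KO 1 and 2 were -0.53 and -0.61 to WT 1 but -0.17 and -0.28 to WT 2. WT 2 was itself -0.21 from WT 1 in these genes.

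**Figure D5:**
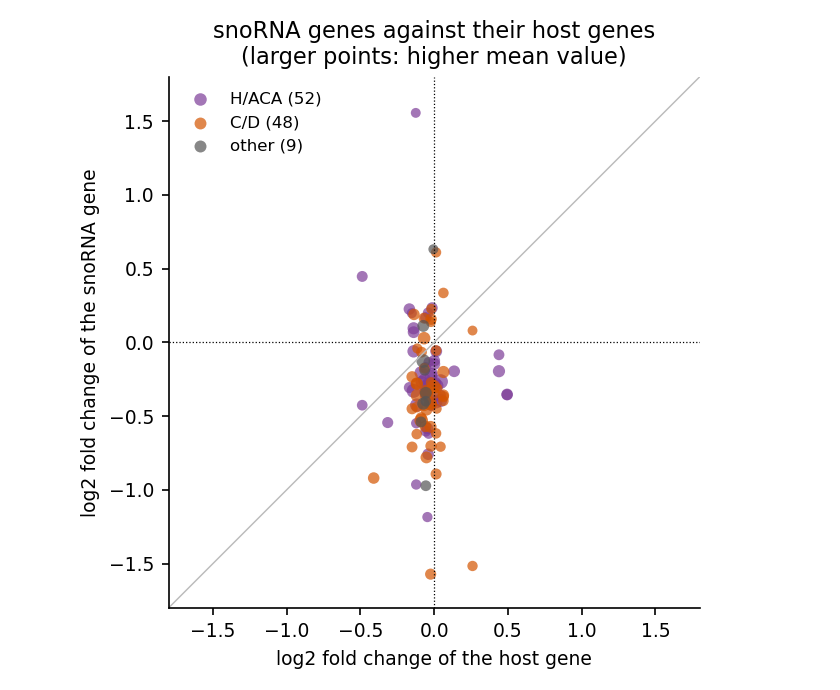
log2 fold change of each tested snoRNA gene (vertical axis) against that of its host (horizontal axis), with the grey line marking equal values, point size growing with mean value and colour giving the class; snoRNAs of 1 host share a horizontal position. Most hosts stand between -0.2 and 0.2 while their snoRNAs spread from -1.57 to 1.56, 89 of 109 below 0. The snoRNA genes have larger standard errors, with a median of 0.41 against 0.27 over all genes. At both extremes, SNORD101 and SNORA24, the groups overlap, so the wider spread is not read as a wider response.

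snoRNA host genes include those of the particle's own proteins. dkc1, the gene of dyskerin, holds 4 SNORD83 genes, SNORA36 and SNORA56. It was at 3662 and 3889 in WT and 4076 and 3558 in Npas4l-KO, while SNORA36 within it was at 209 and 199 in WT and 139 and 170 in Npas4l-KO (log2 fold change -0.41). SNORA56, too low to be tested, was at 8 and 9 in WT and at 2 in both mutants. nop56 holds SNORA42 and SNORD57, which both overlapped between the groups.

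Genes for the proteins of snoRNA particles showed no call at the RNA level. A list of 39 genes covered the core proteins, assembly and trafficking factors, the U3 processome and end processing. 0 passed the limma test, beside the background of 0.048% of all genes in either direction, 1 was higher at an unadjusted p under 0.05, and 0 were lower, where 1.84% and 1.91% of all genes were. The median log2 fold change was -0.06, with 53.8% of the list below 0, beside 52.7% of all genes. fbl, the gene of fibrillarin, was at 3058 and 3015 in WT and 3147 and 2684 in Npas4l-KO (-0.06). nop56 was at 5064 and 5047 against 5230 and 4339 (-0.09), and dkc1, nop10, nhp2 and gar1 had log2 fold changes of 0.01, -0.14, -0.06 and 0.03. snu13a and snu13b were at -0.12 and -0.15. In these genes Npas4l-KO 2 was lowest in 25 of 39, beside 3429 of 5244 of all genes averaging at least 200. The gene that was higher at an unadjusted p under 0.05 was shq1, a chaperone of dyskerin. It was at 124 and 118 in WT and 157 and 183 in Npas4l-KO (0.48 ± 0.22 SE). Without Npas4l-KO 1, and with genes of tied values left out, some of the 39 passed the test. That fit rests on 1 mutant library and is not set against the background given here, so it is not read in either direction.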

How the data were processed

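Total RNA was isolated with a column kit with DNase, and 10 ng per library was made into stranded libraries with a SMARTer kit for low input and sequenced as 75-base single reads, per the labels' protocols. The tools were STAR 2.4.0a, featureCounts 1.4.5-p1 and DESeq2, and the build GRCz10, per the submitters' processing notes. Strand setting and treatment of reads with several matches are not given. As deposited, the values are a score: counts of reads per gene that the authors divided by a factor for each library and then rounded, read from the spacing of the values (1 read was worth 0.898 to 1.09). A count test was not possible on this unit, as planned for that case, so log2(value + 1) was tested by limma-trend (limma 3.58.1, R 4.3.3) for genes with a mean of at least 10, with group as the only term and Benjamini-Hochberg adjustment over all 16653 genes. With 2 libraries per group, standard errors come mainly from the variance trend across genes (83.6 prior degrees of freedom). The added 1 makes fold changes of low genes too small. The precision of low genes is limited by depth.

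Members and lists were chosen with earlier results of these data known. Genes were named by rule: the 5 highest H/ACA and C/D and 3 highest others, up to 6 in each direction by p, up to 4 by spread between the mutants, and the processing RNAs U3, U8, U14 and U17, with hosts. Others, such as the members of dkc1, nop56 and rps3 and the families given by their main copy, were chosen after their values were seen. Single values per library were compared by two-sided exact permutation tests. Alternatives varied pseudocount, filter, scaling, model, host strand, replicate block and libraries. Fits were tested on simulated data. Python 3.11.15, pandas 2.3.3 and Matplotlib 3.10.9 served for tables and figures.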

Additional observations from a re-analysis of the deposited data

How the results depend on the processing

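No snoRNA gene passed the test in either direction under any other pseudocount, filter, scaling or model, or with 1 library left out. Leaving out each library gave 0 to 3 lower and 0 to 0 higher, the calls arising only where genes with tied values were also left out, an alternative chosen after seeing the data: SNORD21, SNORA73 and SNORA81 without Npas4l-KO 1 (adjusted p = 0.0496, 0.0146 and 0.00434 by limma), and SNORD99 and SNORD21 without Npas4l-KO 2 (limma adjusted p = 0.00294 and 0.0287). Leaving out each library gave 0 to 19 host genes and 0 to 3 genes of the protein list. Quantile normalization called 1 host, ncl (0.13, limma adjusted p = 0.0106), and put the C/D median at -0.49. Upper-quartile scaling put the medians at -0.10 (H/ACA) and -0.20 (C/D). Leaving out each library put them between -0.34 and -0.13 and between -0.54 and -0.27 (-0.51 for C/D without WT 2 and tied genes), and the log2 ratio of summed shares between -0.32 and -0.15. The causes were not tested.

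Same-numbered libraries did not deviate together over all genes (correlation 0.009). With 2 libraries per group, this value cannot exclude that same-numbered libraries shared a clutch, day or batch. Whether the numbers mark pairs is therefore not known. With the replicate block 0 snoRNA genes passed and 9 of all genes did, against 8.

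Over all genes, 15 were called after scaling to totals without mitochondrially encoded and ribosomal RNA, 5 by voom, and 0 to 272 on leaving out each library. 11 named genes changed sign. Upper-quartile scaling gave 0.11 for SNORA73 (ENSDARG00000083108) and 0.047 for snoU85 (ENSDARG00000081126). Leaving out each library gave ranges of -0.22 to 0.69 for SNORA23, -1.22 to 0.36 for SNORA68 (0.027 without WT 2), -0.58 to 0.81 for SNORD35, -1.37 to 0.47 for SNORD37 and -0.25 to 1.51 for snoU6-53. The ranges were -0.14 to 0.28 (-0.025 without WT 1), -0.047 to 0.24 and -0.32 to 0.19 (0.098 without Npas4l-KO 2) for the lower SNORA73 copies. They were -0.97 to 0.028 for U3 (ENSDARG00000104579), and -0.27 to 0.014 and -0.86 to 0.032 for the 2 higher snoU85 copies. 2 libraries per group, values that are no counts, and copies sharing reads limit all of these results.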
